A study of Mus musculus with 6 samples.

Results

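The 45 genes described here build, carry and remodel the heparan sulfate, chondroitin sulfate and hyaluronan of cell surfaces and matrix. They were chosen by gene symbol: 4 syndecans, 6 glypicans, 4 lecticans, 3 hyaluronan synthases with 2 hyaluronan-degrading proteins, 23 enzymes that make heparan sulfate chains and 3 that edit the chains outside the cell. All 45 were found among the 28627 genes of the table. They were measured by poly-A RNA sequencing of mouse retinas at postnatal day 15 in oxygen-induced retinopathy, in 3 Emcn-/- samples and 3 samples of their Emcn+/+ littermates. The model exposes pups to high oxygen, which prunes the retinal capillaries, and then to room air, in which the retina becomes hypoxic and vessels sprout anew. Both genotypes went through the model, and an untreated retina was not analysed here. The labels give Emcn-/- without a Cre or cell type, and give no animal numbers or pooling, so p-values reflect only how far these 6 samples varied, which may be technical.

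Heparan sulfate is a chain of alternating sugars that grows on a core protein such as a syndecan or a glypican. Xylosyl-, galactosyl- and glucuronyltransferases lay down a short linker on the core protein, exostosins extend the chain, and sulfotransferases and an epimerase then create the sites that bind growth factors, VEGF among them. Hyaluronan is made at the plasma membrane without a core protein, and lecticans bind it to form aggregates around neurons and in the matrix. On the luminal face of vessels heparan sulfate proteoglycans and hyaluronan lie in the glycocalyx beside endomucin, the sialomucin encoded by Emcn. Values from whole retina do not show which cells the RNA came from.

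The libraries held 14865868 to 17087621 reads assigned to genes. Emcn had 1.95, 1.04 and 4.62 normalised reads in Emcn-/- against 93.3, 80.6 and 100.5 in Emcn+/+, so its level followed the labels (log2 fold change -4.83 ± 0.40 SE, limma adjusted p = 0.0143, a call lost when any of 3 libraries was left out). All 12 retinal markers were detected in every library. Several libraries stood apart. Emcn+/+ replicate 3 had 17641 normalised reads of Xist and 0 of Ddx3y, whereas the other 5 libraries had 1143 to 1393 of Ddx3y, and its summed interferon-response genes were 5702 against 868 to 1060 elsewhere. Gfap, a gene of reactive glia, had 2803 normalised reads in Emcn-/- replicate 3 and 3372 in Emcn+/+ replicate 3, against 999 to 1347 in the other 4 libraries. Vim was likewise 5444 and 6812 in these 2 libraries, against 3340 to 4035. In Emcn+/+ replicate 1 the summed lens markers were 28815 against 31.7 to 170 elsewhere. The summed markers of the retinal pigment epithelium were 8421 to 11745 in Emcn-/- and 3555 to 7381 in Emcn+/+, with higher means in Emcn-/- for 8 of 8 tested markers. The summed endothelial markers were 3747 to 5769 in Emcn-/- and 5631 to 5971 in Emcn+/+, lowest in Emcn-/- replicate 2. Of the 8 endothelial markers 7 had a negative and 1 a positive log2 fold change, with a median of -0.24. The part of these differences in the results below was not tested.

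None of the 45 genes passed the test between Emcn-/- and Emcn+/+ retinas. Reads of 43 were sufficient for the test, and the rarest, Acan and Has2, were below the expression filter. At an adjusted p under 0.05 over all tested genes limma called 0 of the 43, as did edgeR and DESeq2, and limma and edgeR each called 0.00599% of all 16681 tested genes, and DESeq2 1.18% of those with an adjusted p. Without Emcn+/+ replicate 3 limma also called 0 of the 43 (smallest adjusted p 0.120), against 0.905% of all tested genes, 0.228% higher and 0.677% lower. The smallest adjusted p among the 43 was 0.506 in limma, 0.497 in edgeR and 0.574 in DESeq2, which gave an adjusted p for 17 of them. At an unadjusted p under 0.05 limma found 1 of the 43 genes, Has3, with lower values in Emcn-/- (2.33%, against 8.14% of all tested genes, 3.67% higher and 4.47% lower). On the same rule edgeR found 1, also Has3, and DESeq2 found 2, Has3 and Xylt1, against 8.34% and 5.75% of all tested genes. This count moved with single libraries: with each library left out in turn limma found 1 to 9 of the 43. The 9 were found without Emcn+/+ replicate 3 (20.9%, against 17% of all tested genes), with Sdc4, Gpc3, Gpc4 and Sulf1 higher and Ncan, Has3, Xylt1, Ndst4 and Hs3st5 lower in Emcn-/-. Leaving out replicate 1 of either genotype gave 4 (9.30%, against 6.88% of all tested genes for Emcn-/- and 6.74% for Emcn+/+). Without Emcn-/- replicate 3 the count was 3 (6.98%, against 5.76%), and without Emcn+/+ replicate 2 it was 2 (4.65%, against 4.95%). With the sample titles' number series (140 and 180) as a block it was 5 (Bcan, Gpc4, Ncan, Has3 and Xylt1, 11.6%, against 12.5% of all tested genes).

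The log2 fold changes of the 43 genes, Emcn-/- over Emcn+/+ on the log2(value + 1) scale, ran from -0.78 for Has3 to 0.56 for Bcan. Their median was 0.02, beside 0.01 over all tested genes. Of the 43, 24 were positive and 19 negative, beside 8672 positive and 8009 negative over all tested genes. The absolute log2 fold change was under 0.1 for 27 genes and under 0.25 for 34. Its median was 0.08 for the 43 genes and 0.10 over all tested genes. The 95% interval lay within a 1.5-fold difference in either direction for 32 of the 43 genes (74.4%), against 67.9% of all tested genes. The remaining 11 genes, among them Has3, Bcan, Vcan, Gpc3 and Gpc4, had intervals that reached beyond it, and a 1.5-fold difference was within those intervals. The values of both genotypes did not overlap for 3 of the 43 (6.98%), against 14.4% of all tested genes. Bcan was the 1 with higher values in Emcn-/- (background 7.48%), and Has3 and Extl3 were the 2 with lower values (background 6.94%). In whole retina, fewer cells of a type and less RNA per cell cannot be told apart.

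**Figure D1:**
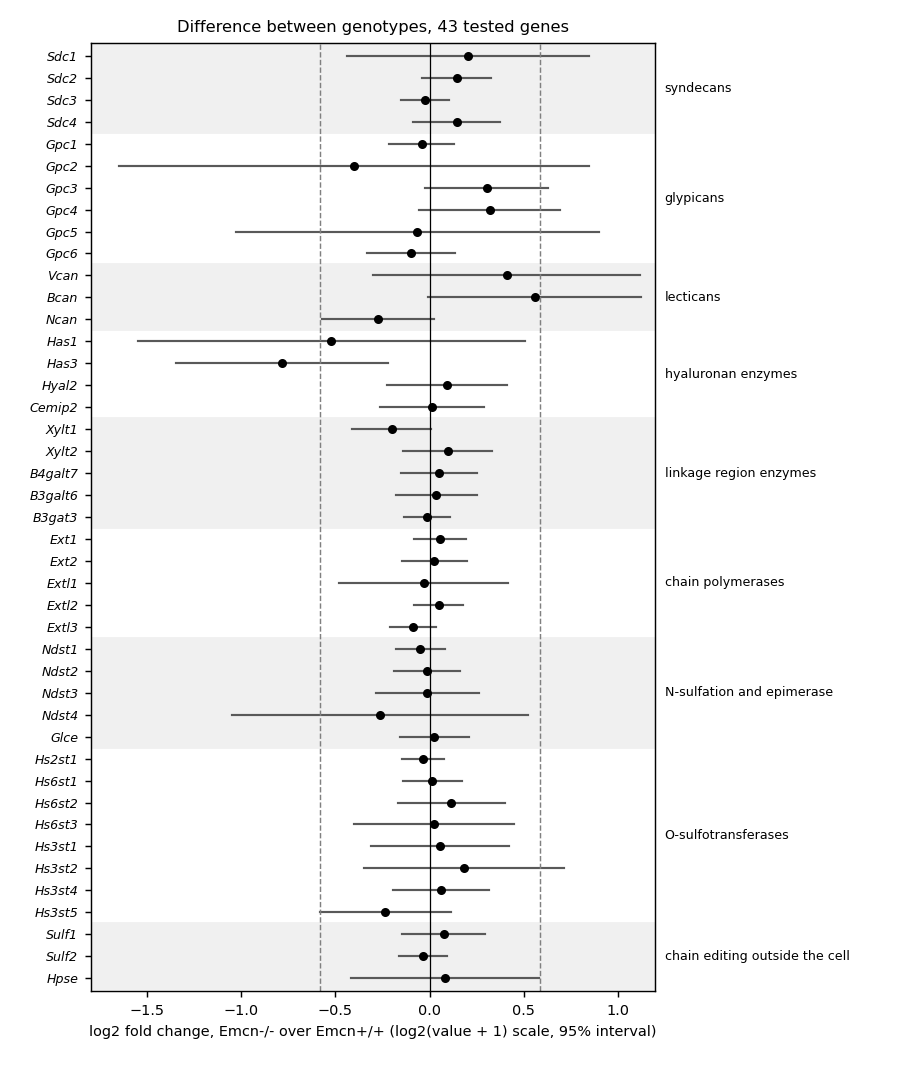
Log2 fold change of the 43 tested genes, Emcn-/- over Emcn+/+, with its 95% interval from limma, grouped by role; the dashed lines mark a 1.5-fold difference. Intervals of the linkage region enzymes and chain polymerases lie within the dashed lines, Has3 (-0.78) and Bcan (0.56) have the points farthest to the left and right, and Gpc2 and Has1 have the widest intervals.

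Levels differed far more between genes than between genotypes. Per kilobase of exon, Sdc4 was the most abundant of the 45 at 513 normalised reads per kb, followed by B3gat3 at 452, Sdc3 at 450.0, Ndst1 at 444, Extl2 at 385 and Extl3 at 301. Acan was the lowest at 0.475. The mean normalised read value was above the median of the tested genes, 304, for 20 of the 43. Has2, Has1, Gpc5, Gpc2 and Has3 came next above Acan, so all 3 hyaluronan synthases lay at the low end of the order.

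**Figure D2:**
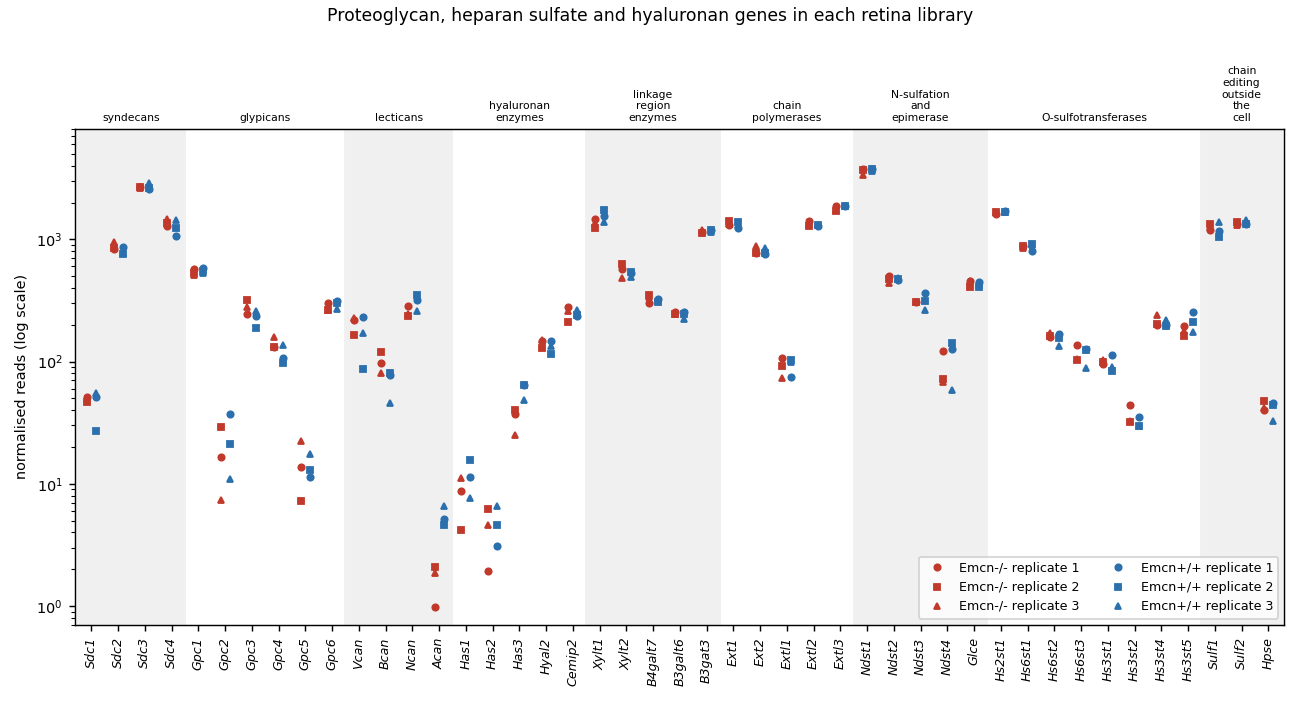
Normalised reads of each of the 45 genes in every library, on a log axis and not divided by length, grouped by role, with Emcn-/- (red) left of Emcn+/+ (blue) and replicates by symbol. Points of both genotypes lie close together for most genes, while sparse genes such as Gpc2, Has1 and Acan spread more widely.

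Syndecans are transmembrane core proteins that carry heparan sulfate, and 0 of 4 passed the test, with 3 positive and 1 negative log2 fold change. Sdc4 (ENSMUSG00000017009, GRCm38 chromosome 2, 164424247 to 164443887, minus strand), a partner of integrins at focal adhesions, had 1293, 1348 and 1462 normalised reads in Emcn-/- and 1066, 1240.1 and 1427 in Emcn+/+. The groups overlapped, with Emcn-/- replicate 3 and Emcn+/+ replicate 3 the highest of their genotypes (log2 fold change 0.14 ± 0.10 SE, limma adjusted p = 0.721), which was 0.04 without Emcn+/+ replicate 1 and 0.25 without Emcn+/+ replicate 3. Sdc2 (GRCm38 chromosome 15, 32920723 to 33034935, plus strand) had 827, 853 and 959 normalised reads in Emcn-/- and 862, 754 and 769 in Emcn+/+. Here Emcn+/+ replicate 1 lay above both lower Emcn-/- libraries, and the log2 fold change of 0.15 ± 0.08 (95% interval -0.04 to 0.33) did not pass (adjusted p = 0.680). Sdc3, the syndecan of neural tissue, averaged 2669.7 ± 33.02 normalised reads across Emcn-/- retinas and 2720.1 ± 161 across Emcn+/+ retinas (SD, n = 3 each), a log2 fold change of -0.03 ± 0.06. Within the syndecan total per kb Sdc3 made up 35.8% ± 1.78 in Emcn-/- and 38.5% ± 0.586 in Emcn+/+, and Sdc4 43.1% ± 1.06 in Emcn-/- and 41.3% ± 3.21 in Emcn+/+ (SD, n = 3 each, a description without a test). The Sdc3 shares, 33.9% to 37.4% in Emcn-/- and 37.9% to 39.1% in Emcn+/+, did not overlap. Sdc1 was sparse at 46.7 to 51.6 normalised reads in Emcn-/- and 26.9 to 55.7 in Emcn+/+.

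Glypicans are heparan sulfate proteoglycans held in the membrane by a lipid anchor, and 0 of 6 passed, with 2 positive and 4 negative. Both positive values belonged to Gpc3 and Gpc4, which adjoin each other on the X chromosome. Gpc3 (ENSMUSG00000055653, GRCm38 chromosome X, 52272426 to 52613950, minus strand), a binder of Wnt and hedgehog ligands, had 246, 318 and 280.0 normalised reads in Emcn-/- and 236, 189 and 261 in Emcn+/+. Emcn+/+ replicate 3 lay above Emcn-/- replicate 1, so the groups overlapped (log2 fold change 0.30 ± 0.15 SE, 95% interval -0.03 to 0.63, limma adjusted p = 0.634). Gpc4 (GRCm38 chromosome X, 52053021 to 52165252, minus strand), which astrocytes secrete as a factor for excitatory synapses, had 132, 132 and 159 normalised reads in Emcn-/- and 108, 96.4 and 137 in Emcn+/+. Again 1 Emcn+/+ library, replicate 3, lay above the lower Emcn-/- libraries (log2 fold change 0.32 ± 0.17 SE, adjusted p = 0.652). The gap between Gpc4 and Gpc3 is 107 kb, and a heparan sulfate sulfotransferase gene, Hs6st2, lies 371 kb on the other side of Gpc4 (GRCm38 chromosome X, 51387212 to 51681856, minus strand). Hs6st2 had 159.7, 163 and 172 normalised reads in Emcn-/- and 167, 157 and 134 in Emcn+/+, a log2 fold change of 0.12 ± 0.13 (adjusted p = 0.821). The 3 neighbours thus had positive log2 values, none of which passed. Without Emcn+/+ replicate 3, the library with Xist reads, the log2 fold changes were 0.40 for Gpc3, 0.46 for Gpc4 and 0.03 for Hs6st2, and without Emcn+/+ replicate 2 that of Gpc4 was 0.21.

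Gpc1, the most abundant glypican per kb (106), had 573, 535 and 514 normalised reads in Emcn-/- and 588, 549 and 533 in Emcn+/+. Its 95% interval ran from -0.21 to 0.13 on the log2 scale. Of its exon length 18.9% is shared with Ankmy1 on the opposite strand, whose reads there cannot be told apart because the strand of the libraries is not known. Ankmy1 averaged 28.4 normalised reads over the libraries, against 548.5 for Gpc1. Gpc6 had a log2 fold change of -0.10 ± 0.10. Gpc5 and Gpc2 were too sparse to bound well: their standard errors were 0.42 and 0.55, and Gpc2 also shares 55.6% of its exon length with the predicted gene Gm43720 on the same strand.

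Lecticans are chondroitin sulfate proteoglycans that bind hyaluronan, and 0 of the 3 tested passed, with 2 positive and 1 negative. Bcan encodes brevican, a lectican of the perisynaptic matrix in brain. Bcan (ENSMUSG00000004892, GRCm38 chromosome 3, 87987531 to 88000230, minus strand) had 96.4, 119 and 81.3 normalised reads in Emcn-/- and 77.8, 80.6 and 45.9 in Emcn+/+. Every Emcn-/- library lay above every Emcn+/+ library, by the small margin of 81.3 in Emcn-/- replicate 3 over 80.6 in Emcn+/+ replicate 2. The log2 fold change was 0.56 ± 0.25 SE (95% interval -0.01 to 1.13, limma adjusted p = 0.616). Without Emcn+/+ replicate 3, the lowest library, it was 0.30, which moved the value by over 1.5 times.

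Ncan (ENSMUSG00000002341, GRCm38 chromosome 8, 70093085 to 70120873, minus strand), neurocan, had 283, 234 and 247 normalised reads in Emcn-/- and 320.5, 349 and 259 in Emcn+/+. The highest Emcn-/- library lay within the Emcn+/+ range, the log2 fold change was -0.27 ± 0.13 SE (95% interval -0.57 to 0.02), and the adjusted p was 0.637. It was -0.18 without Emcn+/+ replicate 2. Vcan, versican, had 219, 165 and 225 normalised reads in Emcn-/- and 232, 87.1 and 170.4 in Emcn+/+, with Emcn+/+ replicate 2 far below the rest, and its log2 fold change was 0.41 ± 0.31 SE. Without Emcn+/+ replicate 2 the Vcan value was 0.02, and without Emcn+/+ replicate 1 it was 0.72. Acan, aggrecan, was at the limit of detection, with 0.974, 2.07 and 1.85 normalised reads in Emcn-/- and 5.19, 4.63 and 6.55 in Emcn+/+. Over the libraries this was 5 reads in Emcn-/- against 16 in Emcn+/+, a ratio of 0.301 (exact 95% interval 0.0862 to 0.860, counting error only). Acan was left out of the main fit because it was below the expression filter. In the limma alternative without that filter its unadjusted p was under 0.05, as for 7.36% of all genes there. It was not called after adjustment.

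Read as shares of the lectican total per kb, Ncan made up 50.2%, 44.3% and 48.9% in Emcn-/- against 55.4%, 64.7% and 60.0% in Emcn+/+. Bcan made up 30.3%, 39.9% and 28.5% in Emcn-/- against 23.8%, 26.4% and 18.8% in Emcn+/+. For both proteoglycans the shares of the genotypes did not overlap, and since shares add up to 100%, those of Ncan and Bcan are not independent. Over the role groups the shares of 7 of the 45 genes did not overlap, namely Sdc3, Bcan, Ncan, Acan, Has3, Extl2 and Extl3. This is a description without a test. Shares were defined only within role groups, so this count has no counterpart over all genes. By normalised value, a different measure, the genotypes did not overlap for 14.4% of all tested genes. Vcan averaged 19.0% in Emcn-/- and 15.9% in Emcn+/+, with libraries that overlapped.

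**Figure D3:**
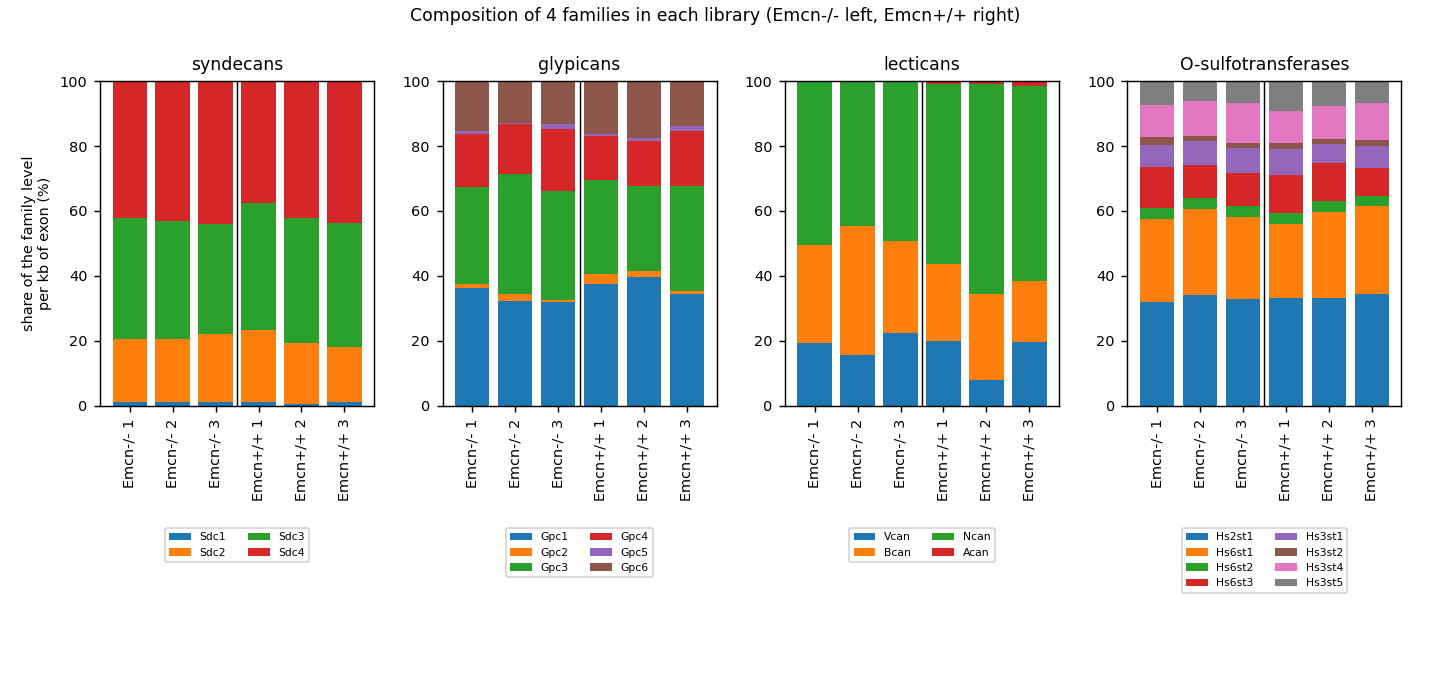
Share of each gene in the summed level per kb of its family, in percent, for 4 families in each of the 6 libraries, Emcn-/- left and Emcn+/+ right of the vertical line. Sdc4 and Sdc3 make up most of the syndecans and Gpc1 and Gpc3 most of the glypicans in every library, while Ncan takes 44.3% to 50.2% of the lecticans in Emcn-/- and 55.4% to 64.7% in Emcn+/+.

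RefSeq promoter windows of 250 bases before the gene start were on hand for 33 of the 45 genes. The windows of Bcan and Acan are shown because these 2 are the genes with non-overlapping values that had a window (GRCm38.p6, Bcan chr3:88000357-88000606 on the minus strand, Acan chr7:79052976-79053225 on the plus strand, both 5′ to 3′ on the gene's strand). Capitals mark GGGCGG on either strand, the GC box read by Sp1-type factors.
Bcan: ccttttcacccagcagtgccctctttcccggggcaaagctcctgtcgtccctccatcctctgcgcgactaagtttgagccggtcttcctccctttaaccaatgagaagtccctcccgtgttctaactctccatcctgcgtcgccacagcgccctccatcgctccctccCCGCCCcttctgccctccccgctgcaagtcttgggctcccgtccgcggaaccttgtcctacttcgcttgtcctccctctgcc
Acan: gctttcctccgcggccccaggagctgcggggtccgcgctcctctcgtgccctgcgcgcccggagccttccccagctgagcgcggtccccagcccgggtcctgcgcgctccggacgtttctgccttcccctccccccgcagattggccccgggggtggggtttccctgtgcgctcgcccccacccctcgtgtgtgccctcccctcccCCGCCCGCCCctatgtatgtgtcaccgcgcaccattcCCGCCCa
Bcan holds 1 match and Acan 3, of which 2 overlap. Among the 33 genes 23 (69.7%) hold GGGCGG in the window, against 35.4% of 27025 genes with a window of the same length. The hypoxia response core ACGTG, searched on both strands, was in 6 (18.2%) against 18.5% of all genes. Median GC content was 64.8% in the 33 windows and 52% over all genes. A match is a description of letters, and the RefSeq starts behind the windows need not be the starts used in these retinas.

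Has3, a hyaluronan synthase, had the log2 fold change farthest from 0 among the 43 tested genes, and it did not pass the test. Has3 (ENSMUSG00000031910, GRCm38 chromosome 8, 106870242 to 106884566, plus strand) had 37.00, 40.5 and 24.95 normalised reads in Emcn-/- and 64.3, 63.95 and 48.1 in Emcn+/+, so all 3 Emcn-/- libraries lay below all 3 Emcn+/+ libraries. The log2 fold change was -0.78 ± 0.25 SE (95% interval -1.35 to -0.22), with an unadjusted limma p of 0.0121 and an adjusted p of 0.506. In rank it was number 397 by p among 16681 genes, and over the libraries left out in turn the log2 fold change ran from -0.92 to -0.58. Has3 shares 5.52% of its exon length with Chtf8 on the opposite strand.

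Of the hyaluronan enzymes, Has1 had 8.76, 4.15 and 11.1 normalised reads in Emcn-/- and 11.4, 15.8 and 7.64 in Emcn+/+, with overlap and a log2 fold change of -0.52 ± 0.45 SE. Has1 was -0.16 without Emcn-/- replicate 2 and -0.29 without Emcn+/+ replicate 2, and reached -0.78 without Emcn-/- replicate 3. Has2, the synthase needed for heart development, had 13 reads in Emcn-/- against 14 in Emcn+/+, a ratio of 0.894 (exact 95% interval 0.387 to 2.05). Hyal2, a surface hyaluronidase, had 146, 129 and 149.7 normalised reads in Emcn-/- and 148, 116 and 134 in Emcn+/+, a log2 fold change of 0.09 ± 0.14. Cemip2, a transmembrane hyaluronidase, had a log2 fold change of 0.01 ± 0.12.

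The 5 linkage region enzymes start every heparan and chondroitin sulfate chain, and all 5 intervals lay within 1.5-fold. Xylt1, which adds the first xylose, had 1467, 1249 and 1354 normalised reads in Emcn-/- and 1556, 1749 and 1388 in Emcn+/+. Emcn-/- replicate 1 lay above Emcn+/+ replicate 3, so the groups overlapped (log2 fold change -0.20 ± 0.09 SE, 95% interval -0.41 to 0.01, limma adjusted p = 0.616), and without Emcn+/+ replicate 2 the value was -0.12. Its sister enzyme Xylt2 had 574, 633 and 481 normalised reads in Emcn-/- and 534, 541 and 496 in Emcn+/+, a log2 fold change of 0.10 ± 0.10. B3gat3, the glucuronyltransferase that completes the linker, had 1158, 1136 and 1195 normalised reads in Emcn-/- and 1192, 1189 and 1146 in Emcn+/+, with a log2 fold change of -0.02 ± 0.05. B4galt7 and B3galt6, the galactosyltransferases between these steps, had log2 fold changes of 0.05 and 0.03.

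For the exostosins and exostosin-like enzymes, grouped here as chain polymerases, all 5 intervals lay within 1.5-fold. Extl3, which adds the first sugar of the chain proper, had 1862, 1705 and 1741 normalised reads in Emcn-/- and 1893, 1868 and 1876 in Emcn+/+. Its libraries did not overlap, with an SD of only 12.8 normalised reads in Emcn+/+, and the log2 fold change was -0.09 ± 0.05 SE (95% interval -0.21 to 0.03) with an adjusted p of 0.694. Ext1, a subunit of the polymerase with Ext2, had 1321, 1407 and 1343 normalised reads in Emcn-/- and 1239, 1384 and 1302 in Emcn+/+, a log2 fold change of 0.05 ± 0.06. Extl2 had 1425, 1291 and 1337 normalised reads in Emcn-/- and 1277, 1319.8 and 1320.3 in Emcn+/+, a log2 fold change of 0.05 ± 0.06, and Ext2 and Extl1 had log2 fold changes of 0.03 and -0.03.

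Of the N-deacetylase/N-sulfotransferases and the epimerase Glce, 0 of 5 passed. Ndst1, the most abundant of them, carried 67.9% of the level per kb of these 5 genes in Emcn-/- and 68.4% in Emcn+/+. Ndst1 had 3763, 3718 and 3361 normalised reads in Emcn-/- and 3754, 3792 and 3656 in Emcn+/+, a log2 fold change of -0.05 ± 0.06 (95% interval -0.18 to 0.08). Ndst4 was the least even, with 123, 72.6 and 68.4 normalised reads in Emcn-/- and 127, 142 and 58.97 in Emcn+/+. Replicate 3 was the lowest library in both genotypes, the log2 fold change was -0.26 ± 0.35 SE, and single libraries moved it. It was -0.65 without Emcn+/+ replicate 3, -0.53 without Emcn-/- replicate 1, and between -0.15 and -0.03 without any of the other 4 libraries in turn. The log2 fold changes of Ndst2, Ndst3 and Glce lay between -0.01 and 0.03.

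O-sulfotransferases place sulfates at the positions that growth factors and antithrombin read, and 0 of 8 passed, with 6 positive and 2 negative. Hs2st1, the heparan sulfate 2-O-sulfotransferase, had 1626, 1688 and 1649.6 normalised reads in Emcn-/- and 1719.5, 1681 and 1675 in Emcn+/+, and its 95% interval of -0.14 to 0.08 on the log2 scale was the narrowest of the 43. Hs3st5 had 196, 163 and 179 normalised reads in Emcn-/- and 255, 210.4 and 174 in Emcn+/+. The genotypes overlapped, with Emcn+/+ replicate 1 the highest library (log2 fold change -0.23 ± 0.15 SE, adjusted p = 0.709). It was -0.10 without that library and -0.37 without Emcn+/+ replicate 3. The remaining Hs6st1, Hs6st3, Hs3st1, Hs3st2 and Hs3st4 had log2 values between 0.02 and 0.18.

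Sulf1 and Sulf2 are secreted sulfatases that remove 6-O-sulfates, and heparanase, encoded by Hpse, cuts the chains. Sulf1 had 1195, 1337 and 1261 normalised reads in Emcn-/- and 1178, 1053 and 1385 in Emcn+/+, a log2 fold change of 0.08 ± 0.10 SE. Sulf2 had 1323, 1385 and 1304 normalised reads in Emcn-/- and 1338, 1339 and 1434 in Emcn+/+, a log2 fold change of -0.03 ± 0.06 SE, and Hpse had a log2 fold change of 0.08. All 3 intervals lay within 1.5-fold.

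**Figure D4:**
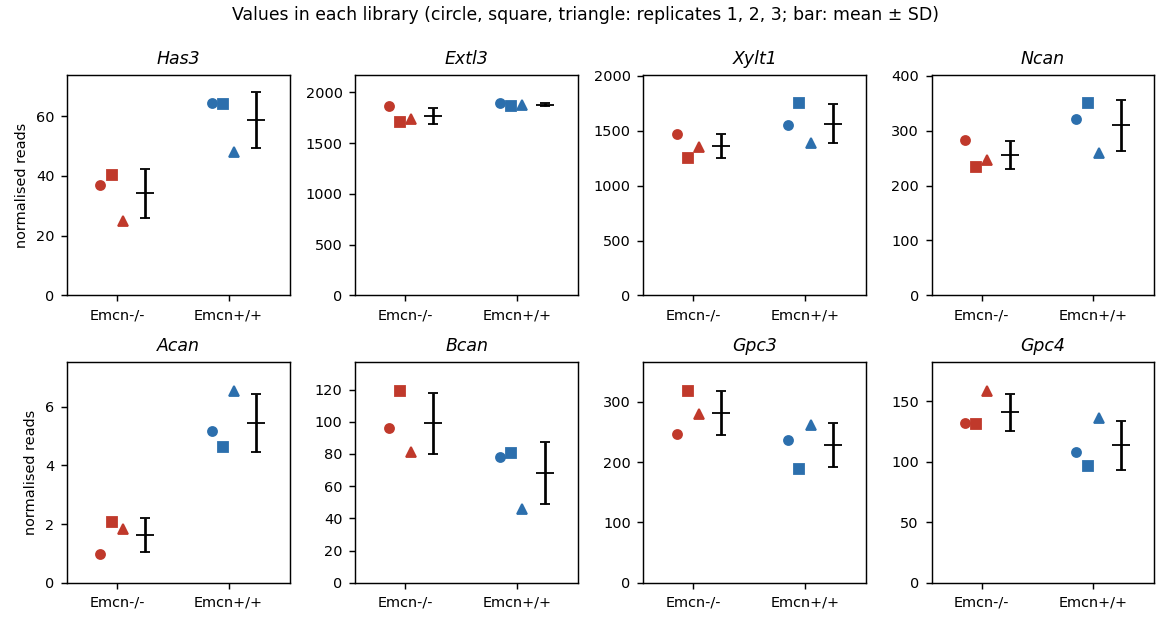
Normalised reads in each library for Has3, Extl3, Xylt1, Ncan, Acan, Bcan, Gpc3 and Gpc4, Emcn-/- left of Emcn+/+, with replicates by symbol and bars for the mean ± SD of 3 libraries. Only for Has3, Extl3, Acan and Bcan among these 8 do the points of the genotypes not overlap.

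The titles of the samples fall into a 140 and a 180 number series, of which the 180 series holds replicate 3 of each genotype. What the numbers mark is not known from the labels, and these 2 libraries are those with the high Gfap and Vim, whose part in the values was not tested. Within the 140 and the 180 series, the log2 difference of Emcn-/- minus Emcn+/+ was -0.71 and -0.92 for Has3, 0.43 and 0.81 for Bcan, and 0.40 and 0.10 for Gpc3. It was 0.37 and 0.22 for Gpc4, -0.38 and -0.07 for Ncan, -0.28 and -0.04 for Xylt1, and -0.08 and -0.11 for Extl3. These 7 genes were chosen on values from all 6 libraries, and the 180 series has 1 library per genotype. Over the 43 tested genes the sign was the same in both series for 23 and opposite for 20, among them Has1 (-1.02 and 0.48), Ndst4 (-0.50 and 0.21), Hs3st5 (-0.37 and 0.05), Sulf1 (0.18 and -0.14) and Sdc1 (0.40 and -0.18). The share of opposite signs over all tested genes is not given here, so this count cannot be set against it.

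The other genes of the pathway were 83 of 85 listed found in the table, 76 of them tested. limma, edgeR and DESeq2 called 0 of the 76, against 0.00599% of all tested genes in limma, and DESeq2 gave an adjusted p for 31 of them. At an unadjusted p under 0.05 limma found 8 (10.5%, 6 higher and 2 lower in Emcn-/-), edgeR 9 and DESeq2 4, against 8.14%, 8.34% and 5.75% of all tested genes in limma, edgeR and DESeq2. The genotypes were separate in 9 (11.8%, against 14.4%), and the median log2 fold change was 0.03.

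Among basement membrane proteoglycans, Col18a1, collagen XVIII, had 3049, 2230.2 and 2973 normalised reads in Emcn-/- and 2203, 1039 and 1905 in Emcn+/+, a log2 fold change of 0.74 ± 0.25 SE (adjusted p = 0.522), which was 0.41 without Emcn+/+ replicate 2. Hspg2, perlecan, chosen after its values were seen, had 453, 261 and 441 normalised reads in Emcn-/- and 1051, 462 and 521 in Emcn+/+, a log2 fold change of -0.76 ± 0.31 SE (adjusted p = 0.589). The highest Hspg2 value was in Emcn+/+ replicate 1, the library with 28815 normalised reads of lens markers, and without it the log2 fold change was -0.39. Whether lens tissue bears on it was not tested. Agrn, agrin, had 1821, 1628 and 1972 normalised reads in Emcn-/- and 1885, 2047 and 2730.1 in Emcn+/+, a log2 fold change of -0.28 ± 0.13 SE, which was -0.13 without Emcn+/+ replicate 3.

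**Figure D5:**
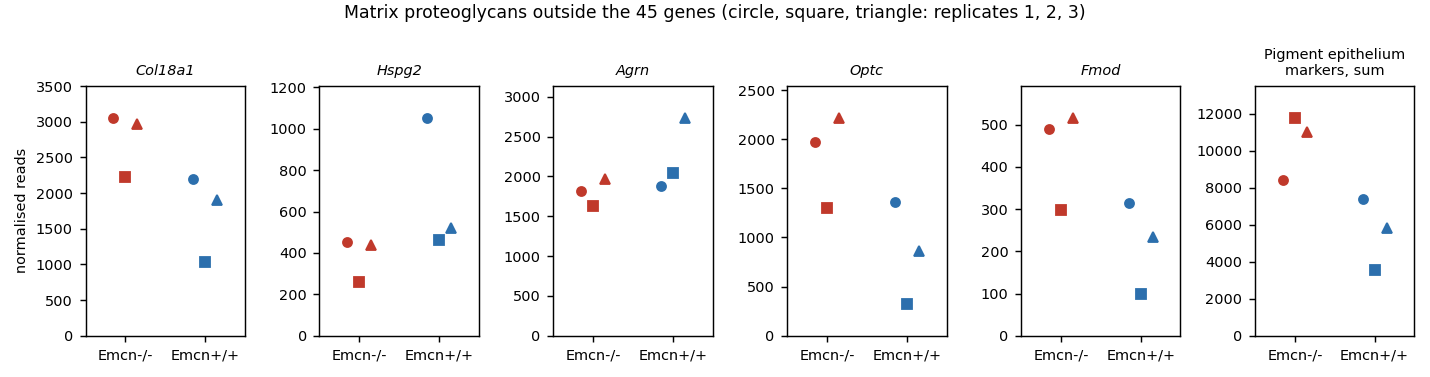
Normalised reads in each library for 5 matrix proteoglycans outside the 45 genes and for the sum of the pigment epithelium markers, Emcn-/- left of Emcn+/+, with replicates by symbol. Emcn+/+ replicate 2 is the lowest Emcn+/+ library for Col18a1, Optc, Fmod and the pigment epithelium sum, and Emcn-/- replicate 2 is the lowest Emcn-/- library for the first 3 of these.

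Of the other lists, Tgfbr3, betaglycan, had 145, 129.7 and 183 normalised reads in Emcn-/- and 109.9, 81.6 and 105 in Emcn+/+ (log2 fold change 0.62 ± 0.18 SE, adjusted p = 0.473). Dse, the dermatan sulfate epimerase, had 70.1, 75.7 and 118 normalised reads in Emcn-/- and 67.4, 37.1 and 57.9 in Emcn+/+ (log2 fold change 0.70 ± 0.28 SE, adjusted p = 0.576). Optc, opticin of the vitreous, and Fmod, fibromodulin, had log2 fold changes of 1.31 ± 0.45 and 1.12 ± 0.39 SE, and with Agrn they were also chosen after their values were seen. Without Emcn+/+ replicate 2, the lowest library for both, Optc was 0.72 and Fmod 0.63. The summed ciliary body and iris markers were 3822 to 4639 in Emcn-/- and 2954 to 4418 in Emcn+/+, with positive log2 values for 6 of 6. Their part, and that of the pigment epithelium markers given above, in the Col18a1, Tgfbr3, Dse, Optc and Fmod values was not tested. Cd44, the hyaluronan receptor, had a log2 fold change of -0.31, and Lyve1 had -0.01. Arsg, a lysosomal sulfatase, had a log2 fold change of 0.24, and Ids had -0.09. Gfpt1, which starts hexosamine synthesis, had a log2 fold change of -0.11, Papss1 -0.11, Chsy1 0.00, Impg1 0.06 and Hs3st3a1 -0.13. Hs3st3b1, a 3-O-sulfotransferase outside the 45, reached 535 normalised reads per kb, above each of the 45, with a log2 fold change of -0.01.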

How the data were processed

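The values deposited by the authors are a signal, here called normalised reads: judged from the values, they are read counts divided by 1 size factor per library, with no correction for transcript length. Sources used here name no aligner or counter. The build was GRCm38, per the submitters' processing notes. Per the labels' protocols, 1.3 µg of RNA was poly-A selected, and whether strand was kept is not known. Of the values 100% were whole reads (tolerance 0.001) once that factor was undone, which gave the recovered reads. A limit of 3 reads was 2.77 to 3.28 normalised reads, and intervals of read ratios cover counting error only.

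Log2(value + 1) was fitted in limma 3.58.1 (R 4.3.3), using an intensity trend, over values of the 16681 genes kept by edgeR's expression filter (minimum count 10). Genotype was the only term, and p-values were Benjamini-Hochberg adjusted, with a threshold of 0.05. edgeR 4.0.16 (quasi-likelihood, TMM) and DESeq2 1.42.0 on the recovered reads, other scalings, filters, pseudocounts, a block for the title number series, removal of a trend on exonic length and each library left out were alternatives. Positions and lengths are from GENCODE M21. The 45 genes, the lists and the rules were chosen with earlier results of these data known. Values per library are given for genes with non-overlapping genotypes, the 2 smallest unadjusted p and the highest level per kb in each role group. Those of Vcan, Hspg2 and Agrn are given as well, outside this rule. The scripts were tested on simulated data.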

Additional observations from a re-analysis of the deposited data

How the results depend on the processing

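Limits: 3 libraries per genotype and, for sparse genes, few reads set the precision, and 11 of 43 intervals reached past a 1.5-fold difference. Under the 16 alternatives 0 of the 45 genes and 0 of the pathway genes were called. limma called 1 gene of all tested; the filter on a mean of at least 50 called 0, because Emcn, with a mean of 47.0, was removed, and DESeq2 called 82. Leaving out each library gave 0 to 151 calls, 0 without Emcn-/- replicate 1, Emcn+/+ replicate 1 or Emcn+/+ replicate 2, where the Emcn call was lost, and 151 without Emcn+/+ replicate 3. The cause was not tested. The block for the title number series called 1 gene of all tested. No paired analysis was possible because the replicate numbers were given in accession order and pair nothing. Of the 43 genes 23 kept their sign, 16 reversed only when a library was left out, and 4 under another alternative. With the length trend removed Ndst3 was 0.0485, Hs2st1 0.0093 and Hs6st3 -0.0168 (log2 fold change). Gpc5 was 0.0538 in edgeR and 0.0466 in DESeq2. Leaving out a library gave Sdc1 -0.1150 to 0.3970, Sdc3 -0.0565 to 0.0226, Gpc2 -0.8373 to 0.0826, Gpc5 -0.4231 to 0.3211, Cemip2 -0.0700 to 0.1263, B3galt6 -0.0144 to 0.0760, B3gat3 -0.0354 to 0.0011, Ext2 -0.0381 to 0.0714, Extl1 -0.1750 to 0.1138, Ndst1 -0.0789 to 0.0026, Ndst2 -0.0608 to 0.0396, Ndst3 -0.1329 to 0.1024, Glce -0.0071 to 0.0777, Hs6st1 -0.0454 to 0.0535, Hs6st3 -0.1414 to 0.1144, Hs3st1 -0.0369 to 0.1867, Hs3st4 -0.0187 to 0.1125, Sulf1 -0.0164 to 0.1810 and Hpse -0.0675 to 0.1654.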

Other observations

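Set apart by title number, the 45 genes were at the share of all genes. Both libraries of the 180 number series lay above the other 4 for 5 of the 43 tested genes (11.6%, against 12.8% of all tested genes) and below the other 4 for 5 (11.6%, against 11.5%). Within genotypes the median SD was 0.15 on the log2 scale for the 43 genes and 0.14 for all tested genes.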
